A study of Mus musculus with 17 samples.

Results

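The comparison described here asks whether clones labelled Pax6-KO and wild-type (WT) clones of mouse lacrimal gland organoids answer a change of medium in the same way. It takes the difference between differentiation medium (DM) and expansion medium (EM) within each clone, and then the difference of that medium effect, KO minus WT. It uses the 8 clone libraries of the 17 in the series: 2 KO clones in DM, the same 2 KO clones in EM, 2 WT clones in DM and the same 2 WT clones in EM. Each line is a single clone, so a genotype is represented by 2 clones. No strain, age or sex is given in the labels for any group. Per the growth protocol, DM cultures spent 2 days in EM and then 5 days in DM, and EM cultures spent 7 days in EM. The series text, by contrast, has the clones exposed for 7 days to each medium, and which of these holds is not known. Uncloned wild-type organoids, 3 lines in DM and the same 3 lines in EM, are set beside the clones only for single results.

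The lacrimal gland secretes the watery part of tears from acinar cells, which pass it on through ducts. Its organoids are epithelial cultures in basement membrane extract, kept dividing in EM and given conditions for differentiation in DM. Pax6 is a transcription factor needed for the development of the eye and the lacrimal gland. Interferon-stimulated genes are switched on when interferons, acting through their receptors, activate a factor that holds STAT2 and IRF9 and binds the interferon-stimulated response element in promoters. Transforming growth factor beta (TGF-beta) and the activins act through SMAD proteins and drive matrix genes and their own feedback inhibitors.

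The core letters of the interferon-stimulated response element, GAAANNGAAA with N as any base, were searched on both strands in the 250 bases upstream of RefSeq gene starts (GRCm38.p6). They occurred in 12 of the 49 genes with a promoter in that table among the 64 genes called with a lower medium effect in KO clones, a share of 24.5%. The share was 3.34% over all tested genes, or 347 of 10395. On the interferon response list, described below, 12 of 24 promoters held the letters (50%), and among the called genes that are not on that list 10 of 45 did (22.2%). Those 10 were Ifi205, Ifi207, Ifi211, Tgtp1, Tgtp2, Gbp7, Oas1g, Slfn8, Gm12250 and Serpinb9. Most of them are named below as known to respond to interferon, so the 22.2% is no share for genes unrelated to interferon. None of the 5 promoters of genes called with a higher effect in KO clones held the letters. A match is a run of letters and no evidence of binding. The following 100-base stretches show the match in capitals for 2 called list members, Rsad2 and Stat2, and for 4 called genes off the list. Each is printed 5′ to 3′ on the strand of its gene.
Rsad2, chr12:26456518-26456617, minus strand: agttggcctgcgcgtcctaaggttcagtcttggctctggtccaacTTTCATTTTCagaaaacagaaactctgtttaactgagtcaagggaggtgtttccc
Stat2, chr10:128270248-128270347, plus strand: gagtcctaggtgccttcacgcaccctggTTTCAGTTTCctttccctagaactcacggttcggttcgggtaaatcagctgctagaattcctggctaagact
Ifi205, chr1:174031835-174031934, minus strand: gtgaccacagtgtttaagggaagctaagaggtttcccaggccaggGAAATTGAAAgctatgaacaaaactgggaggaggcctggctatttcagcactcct
Ifi211, chr1:173913047-173913146, minus strand: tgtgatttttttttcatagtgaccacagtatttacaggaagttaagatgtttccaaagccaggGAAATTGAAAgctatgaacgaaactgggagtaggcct
Gbp7, chr3:142530236-142530335, plus strand: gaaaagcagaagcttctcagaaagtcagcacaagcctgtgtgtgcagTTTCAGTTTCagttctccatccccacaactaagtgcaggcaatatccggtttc
Oas1g, chr5:120887614-120887713, minus strand: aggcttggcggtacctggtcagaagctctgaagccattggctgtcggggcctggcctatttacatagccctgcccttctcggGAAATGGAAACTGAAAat
In Oas1g the capitals cover 2 matches that overlap. Ifi205 and Ifi211 carry the same 10 letters, and they lie near each other on chromosome 1 as close relatives of the Ifi200 family, so they are not independent examples. In the counts above, Ifi207 of the same family and the pair Tgtp1 and Tgtp2 are not independent either.

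Total counts ran from 18965633 to 19454717 in KO libraries and from 18282059 to 22500534 in WT libraries. Levels are CPM, counts divided by the trimmed-mean scaled library total and multiplied up to a common total, and the values of clone 1 and then clone 2 are given for each group. The transcript of Pax6 (chromosome 2, 105668900 to 105697364, GRCm38) stood at 135 and 309 CPM in KO DM and 172 and 272 CPM in KO EM, against 219 and 280 CPM in WT DM and 245 and 276 CPM in WT EM. The groups overlap, and the medium effect did not differ past the test (-0.01 ± 0.21 log2, adjusted p = 1.00). The level of the transcript therefore says nothing on whether the genotype labels hold, and the directions given here rest on those labels. Ptprc, carried by all leukocytes, and the fibroblast collagen Col1a2 had 0 counts in all 8 libraries, but other members of the marker lists for such cells were detected. Summed over the members that passed the filter on low counts, fibroblast markers (5 of 14 tested) came to 105 to 157 CPM in KO and 80 to 280 CPM in WT libraries. Vim and Col6a1 are among those 5, while Col1a1 had 0 to 7 counts per library, Pdgfra 0 to 6, and Col3a1 and Dcn 0 or 1. Endothelial and pericyte markers (5 of 12 tested) came to 6.47 to 92.2 CPM in KO and 74.5 to 233 CPM in WT libraries. Their part in the results was not tested.

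The medium effect differed between genotypes for 70 of 14282 genes tested (0.490%), at a Benjamini-Hochberg adjusted p under 0.05 in edgeR's quasi-likelihood test with each clone as its own block. It was lower in KO than in WT clones for 64 genes (0.448%) and higher for 6 (0.0420%). At an unadjusted p under 0.05 there were 1790 genes (12.5%). Interferon-stimulated genes, matrix and TGF-beta pathway genes and products of secretory or barrier epithelium were among the 64, and Serpine2, Gstm1, Fmo2, Vgll3, Pdlim2 and Pdzrn3 were the 6. In WT clones 2122 genes were higher (14.9%) and 1528 lower (10.7%) in DM than in EM, and in KO clones 1321 were higher (9.25%) and 1017 lower (7.12%). Every one of the 70 lost its call in a fit without the clone block, where 0 genes passed and 1126 had an unadjusted p under 0.05. Without KO clone 1 only 9 of the 70 passed, and without KO clone 2, 27 did. In these bulk samples fewer cells of a type and less RNA per cell cannot be told apart.

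Most of the 64 genes rose in DM in WT clones, and in KO clones they rose less or gave no call. Of the 64, 27 were higher in DM in WT clones with no call in KO clones, and 27 were higher in DM in both genotypes, with the smaller rise in KO clones. Another 4 were lower in DM in KO clones and higher in WT clones, 4 were lower in KO clones with no call in WT clones, and 2 were lower in both. The median medium effect of the 64 was 0.29 log2 in KO and 2.44 log2 in WT clones, while the median over all tested genes was -0.00 in each. For all 70 the effects of the 2 KO clones lay on the same side of both WT clones, an arrangement that 23.6% (KO below) and 20.6% (KO above) of all tested genes had. Both KO EM libraries stood above both WT EM libraries for 54 of the 64, and below for 4 (31.1% and 30.4% over all tested genes). In DM both KO libraries stood above both WT libraries for 33 and below for 17 (26.3% and 26.3% over all tested genes). The clone effects and these EM and DM levels enter the interaction itself, so all these counts describe its shape and are no support for it. The distance between genotype means was smaller in DM than in EM for 52 of the 64, against 53.3% of all tested genes. That distance comes from the same group levels, so this count too describes the shape and is no support.

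**Figure D1:**
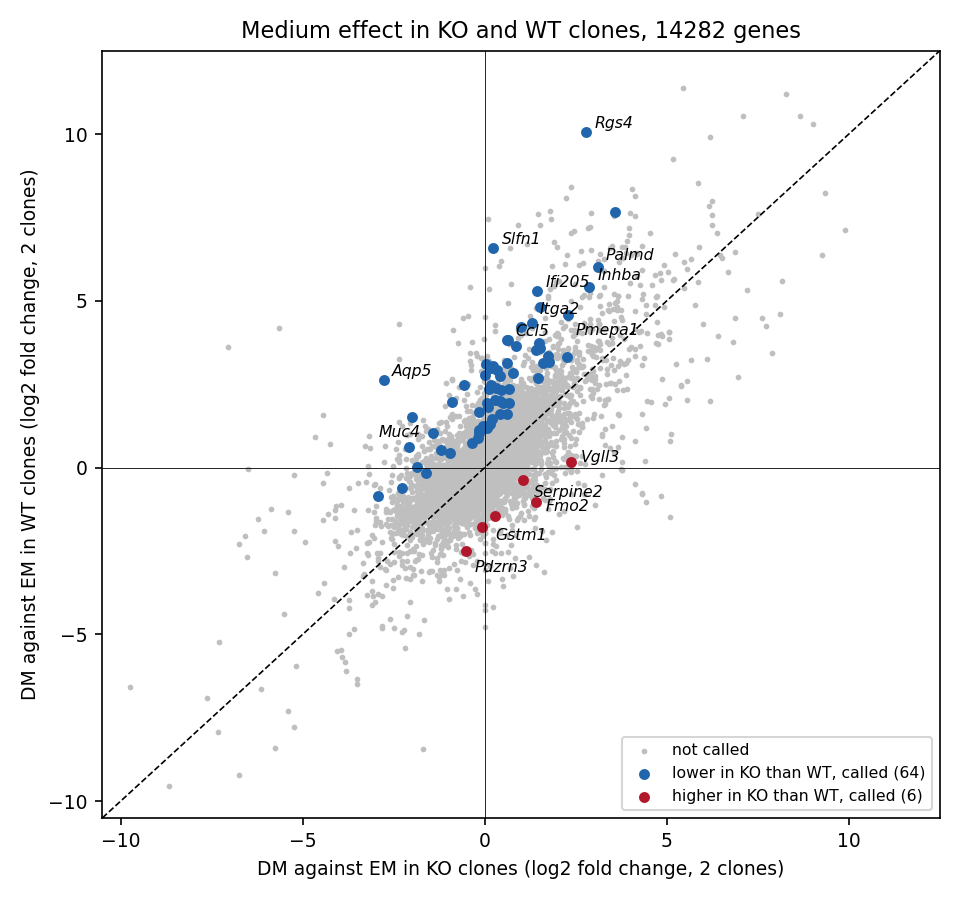
Medium effect (DM against EM, log2 fold change) of each of 14282 genes in KO clones on the x axis and WT clones on the y axis, 2 clones each. The 64 genes called with a lower effect in KO clones lie above the dashed line of equal effects and spread over both sides of 0 on the KO axis, with a median of 0.29 there and 2.44 on the WT axis, and the 6 called with a higher effect lie below it.

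The interferon response list held 32 genes, all tested. All 32 had a lower medium effect in KO than in WT clones, 31 at an unadjusted p under 0.05 (12.5% over all tested genes). In all, 4 passed the adjusted test (0.490% over all tested genes): Rsad2, Cmpk2, Ifi44 and Stat2. The median interaction was -1.51 log2 and the range -2.82 to -0.43, beside a median of -0.02 over all tested genes. In DM 31 of the 32 rose in WT clones, at a list median of 1.72 log2, while in KO clones 1 rose (Ifi44), 1 fell (Oas2) and the median was 0.19. Over all tested genes 14.9% rose in WT clones, and 9.25% rose and 7.12% fell in KO clones. The summed level of the list was 13000 and 17000 CPM in KO DM and 13600 and 13500 CPM in KO EM, against 8670 and 8500 CPM in WT DM and 3840 and 2160 CPM in WT EM. KO clones thus held a high level in both media, and WT clones a lower one that was higher in DM than in EM. Both KO libraries stood above both WT libraries for 32 of 32 genes in EM and for 29 of 32 in DM, where 2 stood below. Over all tested genes the shares were 31.1% above in EM, and 26.3% above and 26.3% below in DM. These levels enter the interaction, so the counts describe its shape and are no support for it. The number of list members called was 1 without KO clone 1, 28 without WT clone 1, 15 without WT clone 2 and 11 with total-count scaling. Without WT clone 2 the median was -1.09 and 31 of 32 were negative, and without WT clone 1 the median was -1.94.

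Rsad2 encodes viperin, an antiviral enzyme (chromosome 12, 26442746 to 26456452). It had 357 and 558 CPM in KO DM and 418 and 346 CPM in KO EM, against 207 and 171 CPM in WT DM and 28.0 and 18.4 CPM in WT EM. The 4 KO values overlap between media, and in WT clones both DM values lie above both EM values (interaction -2.82 ± 0.31 log2, adjusted p = 0.0255). Cmpk2, a mitochondrial nucleotide kinase whose gene is next to Rsad2 (chromosome 12, 26469204 to 26479837), had 114 and 152 CPM in KO DM and 122 and 113 CPM in KO EM, against 73.5 and 57.7 CPM in WT DM and 16.0 and 8.25 CPM in WT EM (-2.31 ± 0.26 log2, adjusted p = 0.0255). Ifi44, an interferon-induced protein, had 828 and 1101 CPM in KO DM and 581 and 625 CPM in KO EM, against 786 and 709 CPM in WT DM and 165 and 129 CPM in WT EM (-1.69 ± 0.19 log2, adjusted p = 0.0255). In DM the KO and WT ranges of Ifi44 nearly meet, and in EM they are far apart. Stat2, a subunit of the factor that binds the response element, had 344 and 422 CPM in KO DM and 361 and 386 CPM in KO EM, against 271 and 214 CPM in WT DM and 129 and 87.5 CPM in WT EM (-1.15 ± 0.16 log2, adjusted p = 0.0435).

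Of the transcription factors on the list, which transmit the signal, Irf1 had an interaction of -0.62 ± 0.15 log2 (adjusted p = 0.138) and Irf9 of -0.63 ± 0.20 (adjusted p = 0.259). Irf7, also such a factor, had -1.99 ± 0.40 (adjusted p = 0.0889). The antiviral effectors Oasl1 (-2.55 ± 0.42, adjusted p = 0.0546) and Mx1 (-2.48 ± 0.43, adjusted p = 0.0637) had values further from 0 that also missed the threshold. The effector Oasl2 was nearer to 0 than Irf7, at -1.08 ± 0.23 (adjusted p = 0.102), so factors and effectors overlapped. These members and Ifi27l2a were picked after their values were seen. Ifi27l2a was the member whose clones overlapped, at -0.55 ± 0.55 log2 (adjusted p = 0.764). WT clone 2 had a larger medium effect than WT clone 1 for 32 of 32 members, and KO clone 2 a larger one than KO clone 1 for 29 of 32. The share over all tested genes is not given here. Members that respond together are not independent, so each count describes a single pair of clones. In uncloned organoids 1 of the 32 rose in DM, Gbp2, and none fell, with a median of -0.06 log2, and these organoids are wild-type by label. The immune marker list summed to 36.0 and 41.1 CPM in KO DM and 64.6 and 34.4 CPM in KO EM, against 195 and 128 CPM in WT DM and 155 and 100 CPM in WT EM. That list holds 14 genes, of which 4 were tested and 0 were called in the interaction, and Ptprc was at 0 throughout. Its part in the interferon result was not tested.

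Several called genes outside that list are also known to respond to interferon. Slfn1, a Schlafen family member, had 49.5 and 77.4 CPM in KO DM and 55.8 and 49.6 CPM in KO EM, against 8.05 and 1.77 CPM in WT DM. WT EM held 2 counts in all, so WT DM stood 115-fold above WT EM with an exact 95% Poisson interval of 31.4 to 955, and the fitted interaction of -6.36 ± 0.65 log2 (adjusted p = 0.0255) depends on those few counts. Its call is lost without WT clone 1. Ifi205, a DNA-binding Ifi200 protein, had 78.3 and 126 CPM in KO DM and 40.6 and 33.1 CPM in KO EM, against 144 and 54.8 CPM in WT DM and 3.79 and 1.31 CPM in WT EM (-3.85 ± 0.35 log2, adjusted p = 0.0186). Unlike Rsad2 it rose in both genotypes, by 1.44 log2 in KO and 5.29 log2 in WT clones. Ifi211 (-1.87), Ifi207 (-3.05), the GTPases Tgtp1 (-2.35), Tgtp2 (-1.72) and Gbp7 (-1.81), the oligoadenylate synthetase family member Oas1g (-1.86), the ISG15-conjugating enzyme Ube2l6 (-1.26) and the ADP-ribosyltransferase family member Parp14 (-1.26) were called as well and are named after their values were seen. Ifi200, Tgtp, Slfn and Oas1 genes have near-identical copies between which reads can be split, so their separate values are uncertain.

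Ccl5, a chemokine that draws T cells (chromosome 11, 83525778 to 83530518), was among the 8 genes called in each of the 8 alternatives that kept the clone block. It had 115 and 124 CPM in KO DM and 88.8 and 68.9 CPM in KO EM, against 141 and 76.9 CPM in WT DM and 9.37 and 5.82 CPM in WT EM. The DM values of the genotypes overlap and the EM values do not, and the interaction was -3.22 ± 0.20 log2 (adjusted p = 0.00472). The other 7 were Rsad2, Ifi205, Itga2, Pmepa1, Sox7, Palmd and the unnamed transcript 1500009C09Rik. That transcript, outside the naming rule, had 61.5 and 68.6 CPM in KO DM and 5.25 and 5.63 CPM in KO EM, against 51.2 and 24.7 CPM in WT DM and 0.268 and 0.0938 CPM in WT EM (-4.09 ± 0.30 log2, adjusted p = 0.00904). Tnfsf10, the death ligand TRAIL (-2.07), and Serpinb9, an inhibitor of granzyme B (-1.39), were also called and are named after their values were seen. Among 29 tested genes of the NF-kappaB, chemokine and alarmin list 25 had a negative interaction. Of all 29, 10 had an unadjusted p under 0.05 (12.5% over all tested genes), and 0 were called. The list's median was -0.52 log2, and -0.34 without KO clone 2. Il1a, an alarmin cytokine, came nearest at -1.93 ± 0.28 log2 (adjusted p = 0.05 as rounded, above the threshold).

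**Figure D2:**
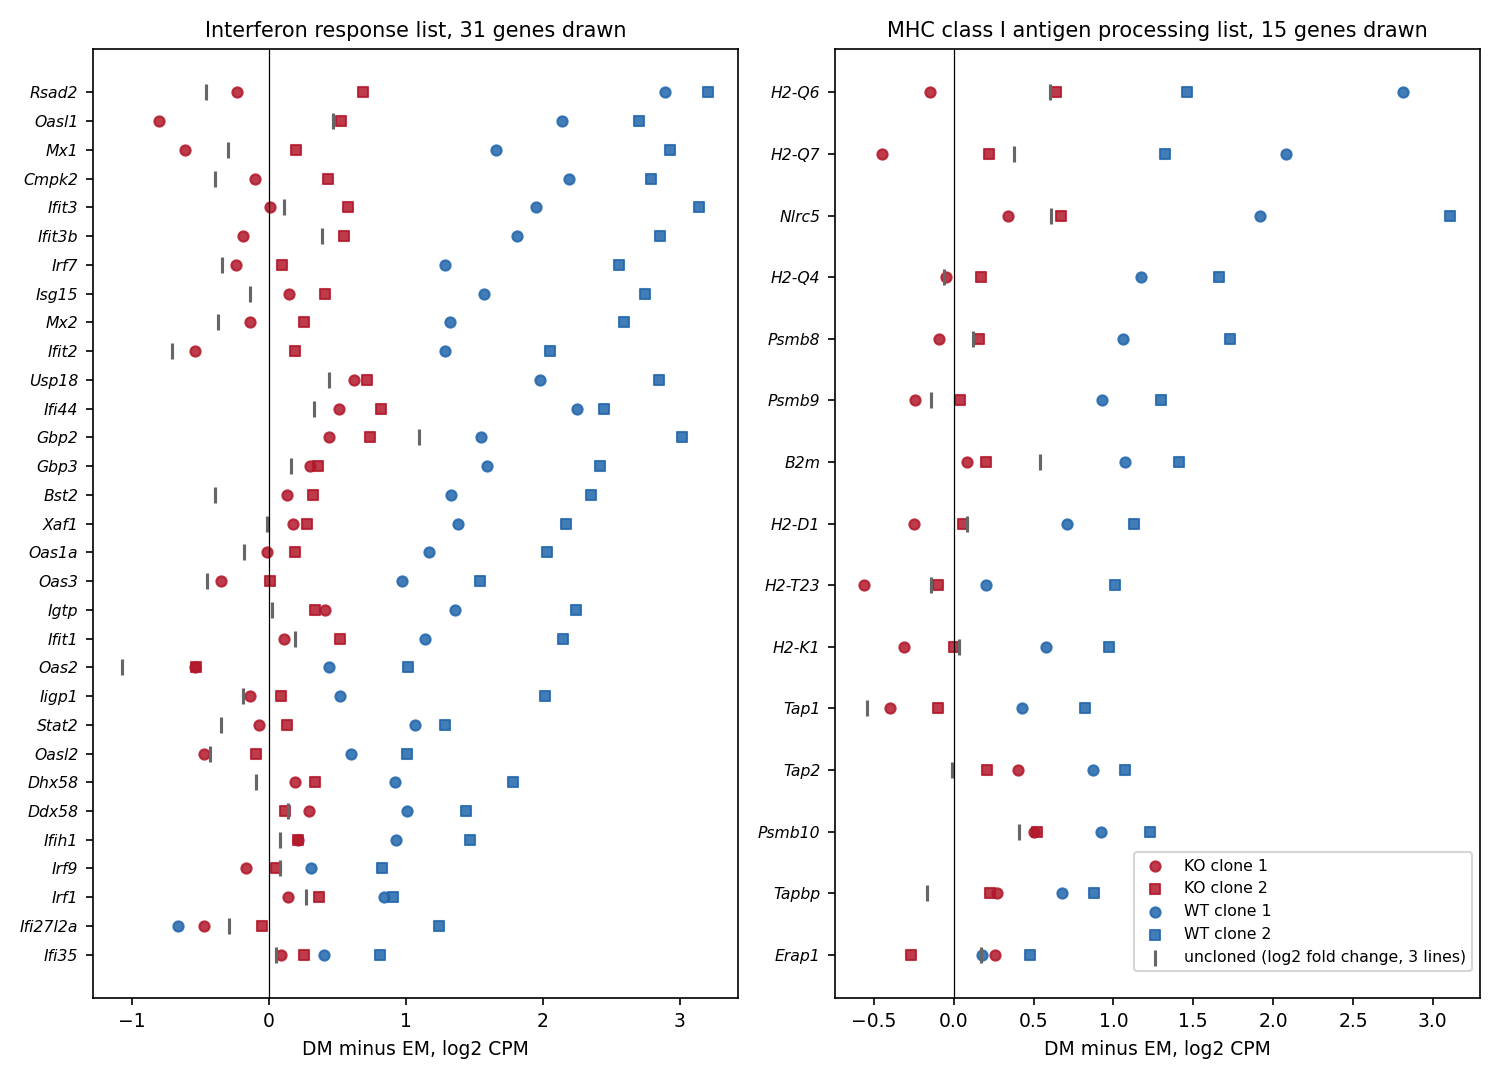
Medium effect (DM minus EM, log2 CPM) in each clone for 31 of the 32 genes of the interferon response list and the 15 of the MHC class I list, sorted by interaction, with grey ticks for the log2 fold change in 3 uncloned lines. Both WT points lie to the right of both KO points for each gene drawn other than Ifi27l2a and Erap1, and the ticks lie mostly near 0, with Gbp2 the only one called.

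Antigen presentation by MHC class I, which displays peptides cut by the immunoproteasome and pumped by the Tap transporter, had the same sign of interaction throughout, with no call. All 15 tested members had a negative interaction, 14 at an unadjusted p under 0.05 (12.5% over all tested genes). Of the 15, 0 were called, and the median was -1.02 log2. In DM 13 rose in WT clones and 1 in KO clones (Psmb10), beside 14.9% and 9.25% over all tested genes. The summed level was 16700 and 18300 CPM in KO DM and 18500 and 17300 CPM in KO EM, against 9470 and 6100 CPM in WT DM and 5570 and 2840 CPM in WT EM. Psmb9, an immunoproteasome subunit, had 102 and 123 CPM in KO DM and 120 and 119 CPM in KO EM, against 60.3 and 50.4 CPM in WT DM and 31.7 and 20.5 CPM in WT EM (-1.21 ± 0.18 log2, adjusted p = 0.0504). H2-Q4, a nonclassical class I heavy chain gene with close copies, had -1.35 ± 0.20 log2 (adjusted p = 0.0504). The number called was 5 without WT clone 2, 4 without WT clone 1 and 3 with total-count scaling. None of the 15 changed past the test in uncloned organoids.

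Inhba and Pmepa1, of activin and TGF-beta signalling, rose in DM in both genotypes, and less in KO clones. Inhba, the subunit of activin A (chromosome 13, 16011851 to 16031621), had 761 and 751 CPM in KO DM and 109 and 98.5 CPM in KO EM, against 499 and 340 CPM in WT DM and 8.88 and 10.3 CPM in WT EM. Its rise was 2.87 log2 in KO and 5.43 log2 in WT clones (interaction -2.56 ± 0.26 log2, adjusted p = 0.0255). Pmepa1, a SMAD target that restrains the pathway (chromosome 2, 173224458 to 173276533), had 432 and 359 CPM in KO DM and 101 and 64.9 CPM in KO EM, against 251 and 356 CPM in WT DM and 11.3 and 13.6 CPM in WT EM (-2.31 ± 0.19 log2, adjusted p = 0.0107). For both genes the EM values of KO clones lie far above those of WT clones, while in DM the KO values are higher for Inhba and nearly meet the WT values for Pmepa1. Lrrc32, which anchors latent TGF-beta at the cell surface, had 30.2 and 45.2 CPM in KO DM and 16.3 and 33.6 CPM in KO EM, against 3.94 and 8.26 CPM in WT DM and 0.357 and 0.469 CPM in WT EM (-3.18 ± 0.35 log2, adjusted p = 0.0255). Ltbp1, a latent TGF-beta binding protein named after its value was seen, was called at -1.18 ± 0.15 log2 (adjusted p = 0.0373). Of the 20 tested genes on the BMP and TGF-beta list 2 were called, both lower in KO clones (0.490% called over all tested genes). Of the 20, 16 were negative, and the list's median was -0.37 log2, beside -0.02 over all tested genes. In DM 11 of the 20 rose and 1 fell in KO clones, and 14 rose and 1 fell in WT clones. Over all tested genes 9.25% rose and 7.12% fell in KO clones, and 14.9% rose and 10.7% fell in WT clones. Skil, another SMAD target, illustrates the members that missed the threshold, at -0.75 ± 0.16 log2 (adjusted p = 0.110).

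Matrix, adhesion and protease genes included 3 calls among 35 tested list members, Tnc, Igfbp3 and Plat, beside 0.490% over all tested genes. Beside a median of -0.02 log2 over all tested genes, the list's median was -0.41, with 26 members negative and 9 positive. The median was -0.27 without KO clone 2, -0.21 without WT clone 1 and -0.64 without WT clone 2, and 0 members were called without KO clone 1. Itga2, the collagen-binding integrin subunit (chromosome 13, 114833081 to 114932100), is not on that list and had 222 and 243 CPM in KO DM and 104 and 87.4 CPM in KO EM, against 396 and 199 CPM in WT DM and 17.6 and 10.8 CPM in WT EM. It rose by 1.29 log2 in KO and 4.35 log2 in WT clones (-3.07 ± 0.19 log2, adjusted p = 0.00472). Tnc, the matrix protein tenascin C, had 1183 and 1143 CPM in KO DM and 340 and 436 CPM in KO EM, against 1300.0 and 697 CPM in WT DM and 157 and 73.6 CPM in WT EM (-1.55 ± 0.21 log2, adjusted p = 0.0373). Igfbp3, which binds insulin-like growth factors, had 1844 and 2077 CPM in KO DM and 1374 and 1530 CPM in KO EM, against 2399 and 2568 CPM in WT DM and 672 and 562 CPM in WT EM (-1.58 ± 0.21 log2, adjusted p = 0.0373). Plat, tissue plasminogen activator, went the other way in KO clones, with 3.29 and 4.36 CPM in KO DM and 20.4 and 12.4 CPM in KO EM, against 63.6 and 132 CPM in WT DM and 32.9 and 107 CPM in WT EM (-2.69 ± 0.37 log2, adjusted p = 0.0409). For Plat the 2 WT clones differ more from each other than either does between media.

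Rgs4, which shortens signalling by G proteins (chromosome 1, 169741477 to 169747642), had the largest fitted interaction among named genes, and it rests on a group at 0. It had 240 and 10.5 CPM in KO DM and 30.2 and 2.09 CPM in KO EM, against 4.03 and 9.45 CPM in WT DM and 0 counts in both WT EM libraries. DM over EM was 7.79-fold in KO clones and at least 93.9-fold in WT clones, taking 3 counts over the WT EM group, so the WT ratio was at least 12.1-fold higher. The fitted value of -7.28 ± 0.91 log2 (adjusted p = 0.0440) is no bound. The KO clones differ widely in level, and the call is lost without KO clone 1 or without WT clone 2. Palmd, a paralemmin family protein, had 308 and 285 CPM in KO DM and 33.7 and 35.5 CPM in KO EM, against 27.5 and 56.6 CPM in WT DM and 0.312 and 0.985 CPM in WT EM (-2.93 ± 0.23 log2, adjusted p = 0.0102). Sox7, a transcription factor of the SOX family, had 39.5 and 60.7 CPM in KO DM and 41.2 and 58.1 CPM in KO EM, against 23.8 and 44.6 CPM in WT DM and 3.70 and 6.10 CPM in WT EM (-2.78 ± 0.17 log2, adjusted p = 0.00472). Palmd and Sox7 are named after their values were seen.

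**Figure D3:**
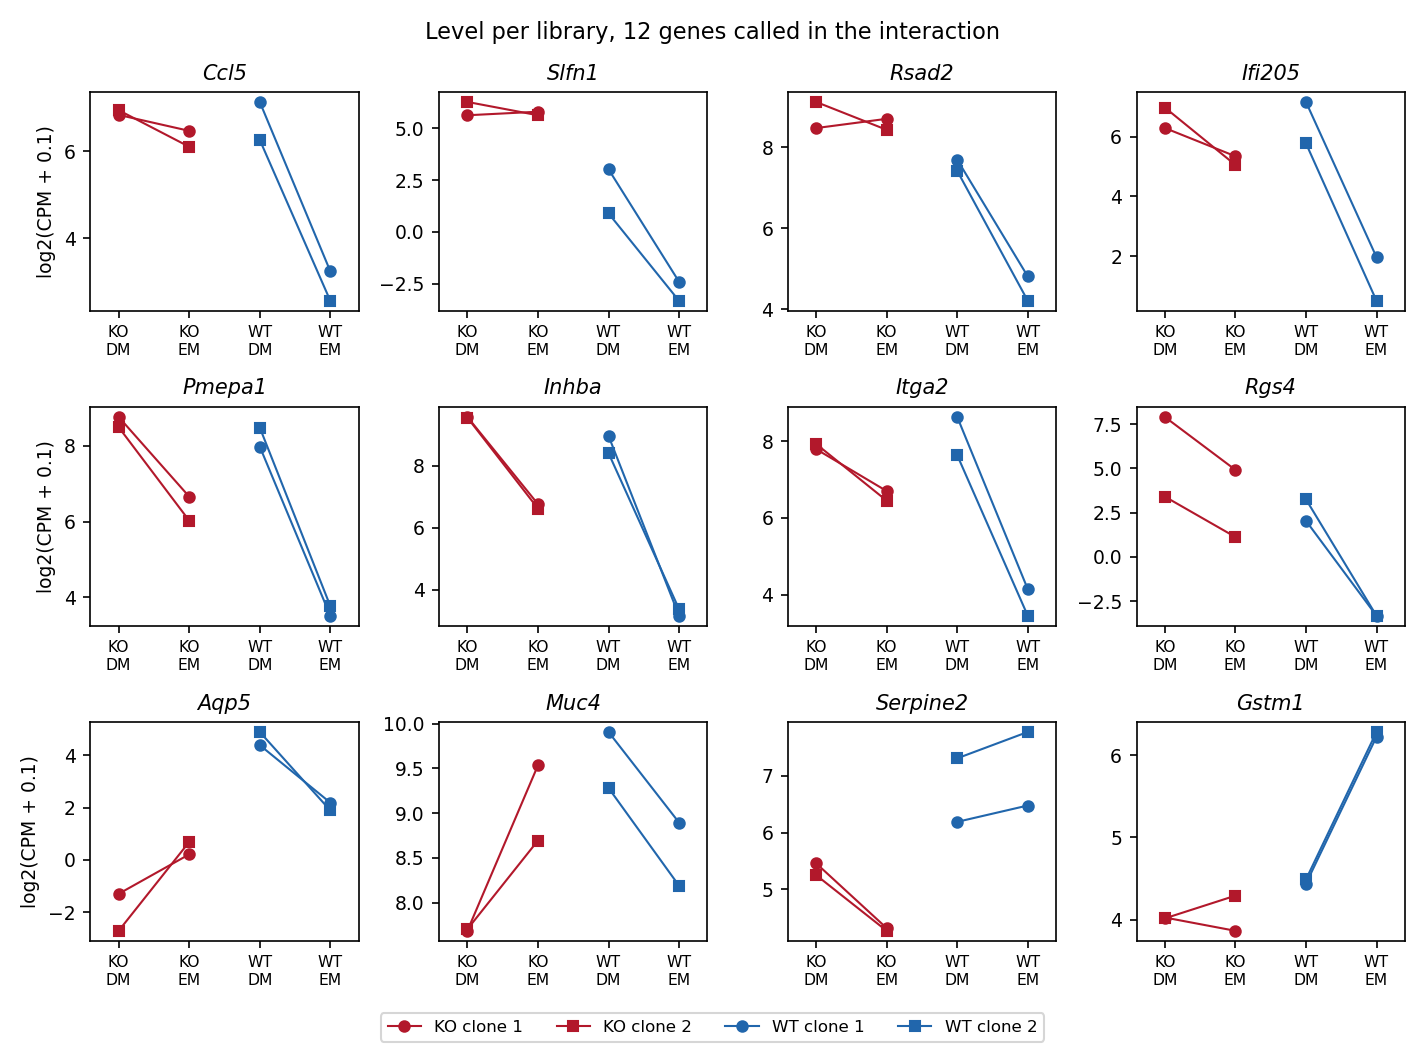
Level in each library, as log2(CPM + 0.1), of 12 genes called in the interaction, with a line joining the DM and EM libraries of a clone. Ccl5, Rsad2, Slfn1 and Ifi205 are low only in WT EM or in both WT groups, Aqp5 and Muc4 fall in DM in KO clones and rise in WT clones, and Serpine2 rises in DM in KO clones only.

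Aqp5, Muc4 and Clca3b, products of secretory or surface epithelium, fell in DM in KO clones and rose in WT clones. Aqp5, the water channel of lacrimal acinar cells (chromosome 15, 99590782 to 99594829), had 0.308 and 0.0531 CPM in KO DM and 1.06 and 1.51 CPM in KO EM, against 20.9 and 29.6 CPM in WT DM and 4.46 and 3.61 CPM in WT EM. It fell by 2.77 log2 in KO clones (adjusted p = 0.0299) and rose by 2.62 log2 in WT clones (adjusted p = 0.00248), an interaction of -5.39 ± 0.71 log2 (adjusted p = 0.0373) that misses the threshold without either KO clone. It rose in uncloned organoids too, by 3.53 log2. Muc4, a mucin of the cell surface (chromosome 16, 32735886 to 32782391), had 206 and 208 CPM in KO DM and 741 and 414 CPM in KO EM, against 960 and 622 CPM in WT DM and 476 and 292 CPM in WT EM. KO clones were lower in DM and WT clones higher (-2.48 ± 0.28 log2, adjusted p = 0.0255). Of 9 tested mucins 1 was called, 7 were negative and the median was -1.24 log2, with 0 calls and a median of -0.60 without KO clone 1 and 3 calls and a median of -2.16 without KO clone 2. In DM 5 of them fell and 1 rose in KO clones, and 1 fell and 4 rose in WT clones. Over all tested genes 7.12% fell and 9.25% rose in KO clones, and 10.7% fell and 14.9% rose in WT clones. In the interaction 0.490% of all tested genes were called, at a median of -0.02 log2. Muc13, Muc1 and Muc16 had values of -2.59, -1.77 and -2.08 log2 that missed the threshold.

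Clca3b, a member of the calcium-activated chloride channel regulator family, had 7.96 and 23.1 CPM in KO DM and 37.3 and 81.2 CPM in KO EM, against 66.4 and 43.5 CPM in WT DM and 14.1 and 25.0 CPM in WT EM (-3.51 ± 0.44 log2, adjusted p = 0.0370). Slc26a9, an anion transporter of epithelial surfaces, had 88.7 and 132 CPM in KO DM and 50.8 and 69.4 CPM in KO EM, against 61.3 and 32.1 CPM in WT DM and 2.99 and 4.08 CPM in WT EM (-2.79 ± 0.37 log2, adjusted p = 0.0373). It was the only one of 19 tested duct and ion transport genes called, and that list had a median of -0.33 log2, or -0.12 without KO clone 1 and -0.58 without KO clone 2. Wfdc2, a secreted antiprotease-like protein, had 452 and 712 CPM in KO DM and 2486 and 3000.0 CPM in KO EM, against 760 and 857 CPM in WT DM and 1314 and 1154 CPM in WT EM. It fell in DM in both genotypes, by 2.27 log2 in KO and by 0.61 log2 in WT clones (-1.66 ± 0.23 log2, adjusted p = 0.0425). It was the only call among 13 tested tear proteins, whose median was -0.10 log2 and 0.18 without WT clone 2, and Aqp5 the only one among 22 acinar genes, whose median was -0.09 log2. The tear protein list holds 30 genes, and another 13 of them had no counts in the 8 libraries or no entry, so its median covers a part of it.

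Barrier and squamous genes gave 2 calls among 21 tested keratinization genes, beside 0.490% over all tested genes. Of the 21, 13 were negative and 8 positive. Beside a median of -0.02 log2 over all tested genes, the list's median was -0.61. Without KO clone 1 the median was -0.34 with 0 calls, and without WT clone 1 it was -0.38. Sprr2d, a precursor of the cornified envelope with close copies, had 80.9 and 172 CPM in KO DM and 111 and 122 CPM in KO EM, against 60.03 and 76.6 CPM in WT DM and 9.95 and 5.86 CPM in WT EM (-3.09 ± 0.42 log2, adjusted p = 0.0373). Dsg3, a desmosomal cadherin, had 384 and 462 CPM in KO DM and 267 and 331 CPM in KO EM, against 545 and 315 CPM in WT DM and 131 and 91.2 CPM in WT EM (-1.42 ± 0.16 log2, adjusted p = 0.0255). Both genes stood higher in KO than in WT clones in EM. Skint3, a member of the Skint family of epithelial surface proteins with close copies, had 40.4 and 27.7 CPM in KO DM and 11.3 and 12.1 CPM in KO EM, against 10.5 and 7.69 CPM in WT DM and 0.446 and 0.188 CPM in WT EM (-3.31 ± 0.41 log2, adjusted p = 0.0346). Akr1b8, an aldo-keto reductase, had 93.7 and 84.6 CPM in KO DM and 36.9 and 30.1 CPM in KO EM, against 76.9 and 48.6 CPM in WT DM and 4.73 and 5.96 CPM in WT EM (-2.11 ± 0.29 log2, adjusted p = 0.0425).

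The 6 genes with a higher medium effect in KO clones had a median effect of 0.67 log2 in KO and -1.24 log2 in WT clones. Of these, 3 fell in DM in WT clones with no call in KO clones, 2 rose in KO and fell in WT clones, and 1 rose in KO clones with no call in WT clones. Serpine2, a secreted inhibitor of thrombin and plasminogen activators (chromosome 1, 79794197 to 79861180), had 43.9 and 38.0 CPM in KO DM and 19.9 and 19.3 CPM in KO EM, against 72.8 and 158 CPM in WT DM and 88.9 and 218 CPM in WT EM (1.44 ± 0.15 log2, adjusted p = 0.0255). KO clones stood below WT clones in both media. Fmo2, a flavin-containing monooxygenase, had 22.3 and 15.7 CPM in KO DM and 8.84 and 5.63 CPM in KO EM, against 35.1 and 129 CPM in WT DM and 105 and 186 CPM in WT EM (2.45 ± 0.35 log2, adjusted p = 0.0435). Vgll3, a cofactor of TEAD transcription factors, had 9.29 and 4.73 CPM in KO DM and 1.52 and 1.15 CPM in KO EM, against 39.9 and 17.0 CPM in WT DM and 31.6 and 16.7 CPM in WT EM (2.17 ± 0.29 log2, adjusted p = 0.0373).

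Gstm1, a glutathione transferase, had 16.2 and 16.1 CPM in KO DM and 14.5 and 19.5 CPM in KO EM, against 21.6 and 22.4 CPM in WT DM and 74.6 and 77.7 CPM in WT EM (1.73 ± 0.20 log2, adjusted p = 0.0255). The 2 WT clones agree closely, and WT EM stands apart from the other groups. Pdlim2, a PDZ and LIM domain protein, had 20.5 and 22.95 CPM in KO DM and 17.8 and 18.1 CPM in KO EM, against 15.8 and 17.0 CPM in WT DM and 44.8 and 44.5 CPM in WT EM (1.72 ± 0.18 log2, adjusted p = 0.0255). Pdzrn3, a ubiquitin ligase, had 17.5 and 31.0 CPM in KO DM and 21.1 and 52.3 CPM in KO EM, against 4.99 and 5.81 CPM in WT DM and 24.2 and 38.2 CPM in WT EM (1.98 ± 0.25 log2, adjusted p = 0.0373). The next genes by unadjusted p, Plod2 (0.95 ± 0.14 log2), Fzd10 (2.33 ± 0.34), Tsc22d3 (1.08 ± 0.16) and Gstm2 (1.43 ± 0.22), had adjusted p of 0.05 as rounded, 0.0503, 0.0504 and 0.0530. Among 19 tested NRF2 targets, which include glutathione enzymes, 1 was higher (Gstm1) and 1 lower (Akr1b8), and the median was 0.33 log2, or 0.15 without KO clone 1, 0.10 without WT clone 1 and 0.22 without WT clone 2.

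**Figure D4:**
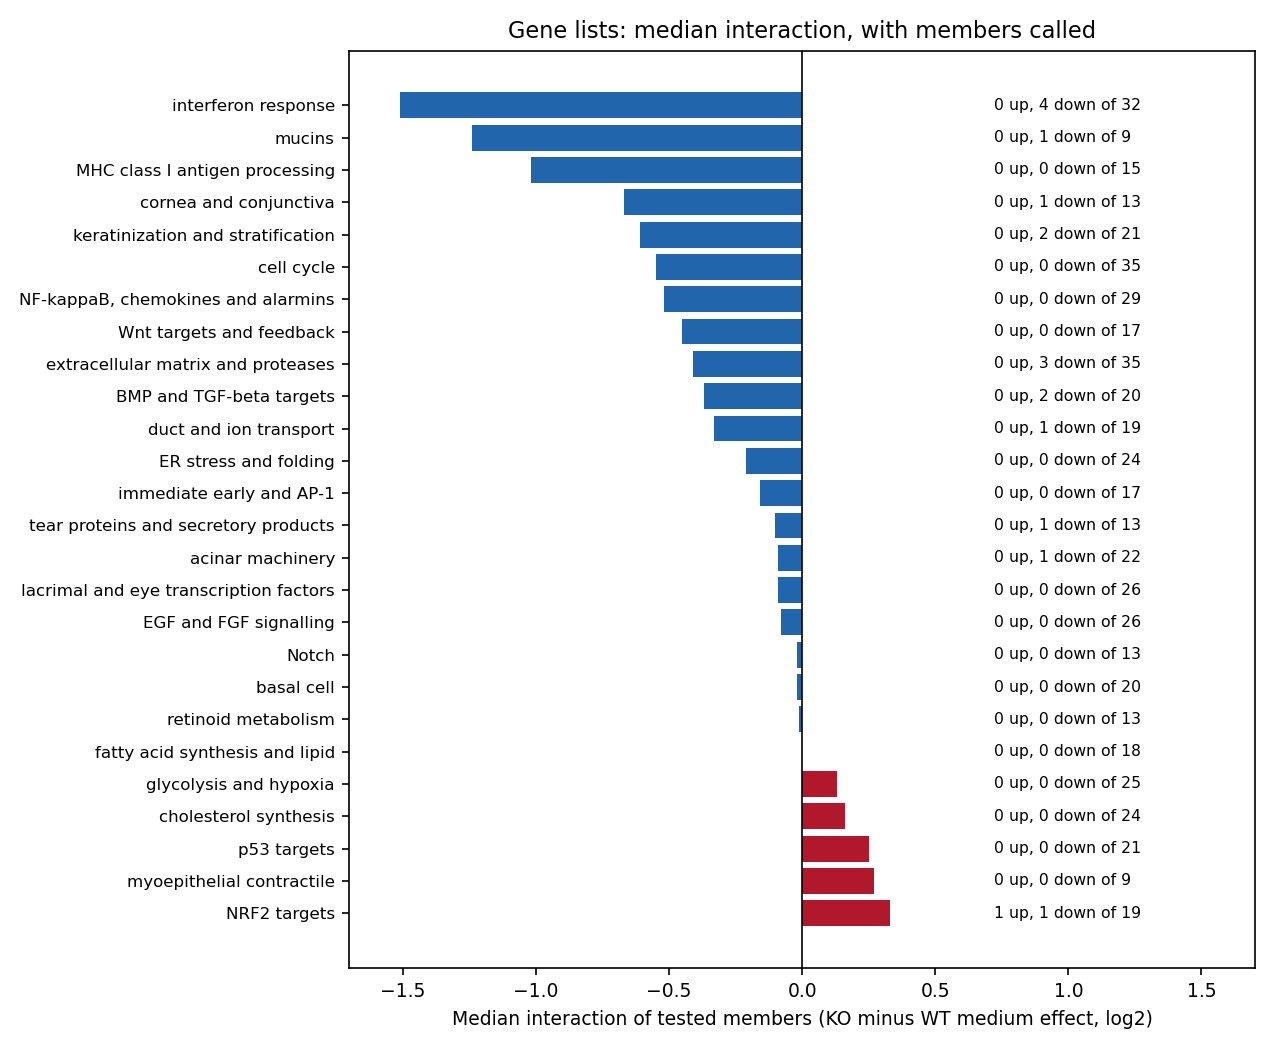
Median interaction (KO minus WT medium effect, log2) over the tested members of each gene list with at least 9 of them, other cell types left out, with the number called up and down. The interferon list has a median of -1.51 and the NRF2 list of 0.33, and the order of lists near 0 changes when single clones are left out.

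Several other lists gave no call in the interaction. Over all tested genes 0.490% were called, so 0 calls in lists of this size is near that share. In the cell cycle list 34 of 35 tested genes were negative, with a median of -0.55 log2. Of the 35, 7 had an unadjusted p under 0.05 (12.5% over all tested genes), and 0 were called. Without WT clone 1 the median was -0.06, with 20 negative and 15 positive, and without WT clone 2 it was -1.07, with 29 at an unadjusted p under 0.05 and 6 called. In DM 29 of these fell in KO and 23 in WT clones, beside 7.12% and 10.7% over all tested genes. Aurkb, a mitotic kinase, had 3.34 and 5.53 CPM in KO DM and 20.8 and 32.3 CPM in KO EM, against 11.3 and 4.16 CPM in WT DM and 20.1 and 16.0 CPM in WT EM (-1.25 ± 0.38 log2, adjusted p = 0.236). The Wnt list had 0 calls of 17 and a median of -0.45 log2, but a median of 0.01 without WT clone 1 and -0.18 without KO clone 2, and 4 calls without WT clone 2. Axin2, its feedback inhibitor, fell in DM by 2.29 log2 in KO and by 1.16 log2 in WT clones (interaction -1.13 ± 0.18, adjusted p = 0.0530). Lgr6, a receptor for the Wnt enhancers called R-spondins, rose by 5.85 log2 in KO and by 8.52 log2 in WT clones (-2.67 ± 0.51, adjusted p = 0.0780). The WT EM libraries held only 2 and 5 counts of Lgr6, so its WT rise and interaction depend on few counts. The contractile list of myoepithelial cells had 0 calls of 9 and a median of 0.27 log2, between 0.10 without KO clone 2 and 0.66 without KO clone 1, with 1 call without WT clone 2. Acta2, smooth muscle actin, had 20.1 and 32.6 CPM in KO DM and 0.202 and 1.15 CPM in KO EM, against 1.69 and 10.8 CPM in WT DM and 0.491 and 1.501 CPM in WT EM (2.89 ± 0.62, adjusted p = 0.106). Cholesterol synthesis had 0 of 24 called, and 0 at an unadjusted p under 0.05, with a median of 0.16 log2. Without KO clone 2, 11 had an unadjusted p under 0.05 and the median was 0.65, and without KO clone 1 it was -0.08. Among 26 tested transcription factors of the lacrimal gland and eye, Pax6 itself included, 0 were called and the median was -0.09 log2.

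The whole response to the medium was of similar size in the clones of a genotype and lower in both KO clones than in both WT clones, as a description with no test. The median absolute DM over EM ratio was 0.30 and 0.30 log2 in KO clones and 0.36 and 0.34 log2 in WT clones over 14282 genes, and 0.24 and 0.24 against 0.29 and 0.27 over the 9767 genes of at least 10 CPM in a group. Across genes, which are not independent replicates, the medium effects correlated at r = 0.76 between the KO clones and 0.77 between the WT clones, and at 0.63 to 0.67 between a KO and a WT clone. All of these pairs share the scaling of a single table. The slope of the mean KO effect on the mean WT effect was 0.63, at a correlation of 0.74 between these means. Scatter of the gene values lowers such a slope, so it does not measure how much smaller the KO response was.

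Uncloned organoids, which the interaction did not use, had 2253 genes higher (17.3%) and 1947 lower (14.9%) in DM than in EM among 13029 tested in a table scaled apart. Of the 64 genes with a lower effect in KO clones 60 were tested there, and 36 rose, 3 fell and 21 were not called. Their median medium effect was 0.31 log2 in KO clones, 2.42 log2 in WT clones and 1.03 log2 in uncloned organoids, and the uncloned value was nearer to the KO value for 29 of the 60. Among TGF-beta, adhesion and matrix genes, the uncloned effects of Inhba (4.67 log2), Pmepa1 (4.36), Itga2 (3.70) and Tnc (3.02) were nearer to the WT clones. The 4 called members of the interferon list were nearer to the KO clones in medium effect, at -0.46 log2 for Rsad2, -0.39 for Cmpk2, 0.33 for Ifi44 and -0.35 for Stat2. None of them changed past the test in uncloned organoids. Levels in uncloned organoids are not given here, so a like medium effect says nothing on a like level. The interferon-responsive called genes off that list were mixed. Of these, the Ifi200 family members Ifi205 (4.93 log2), Ifi211 (1.59) and Ifi207 (1.22) rose there and were nearer to the WT clones. Tgtp1 (0.85), Tgtp2 (0.31), Gbp7 (-0.28), Oas1g (0.03), Ube2l6 (0.20) and Parp14 (0.04) were nearer to the KO clones, and only Tgtp1 among them changed past the test. Slfn1 was not tested there. Of the 6 genes with a higher effect in KO clones, 1 rose (Vgll3), 1 fell (Pdzrn3) and the median was -0.14 log2. No test was run across the tables.

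**Figure D5:**
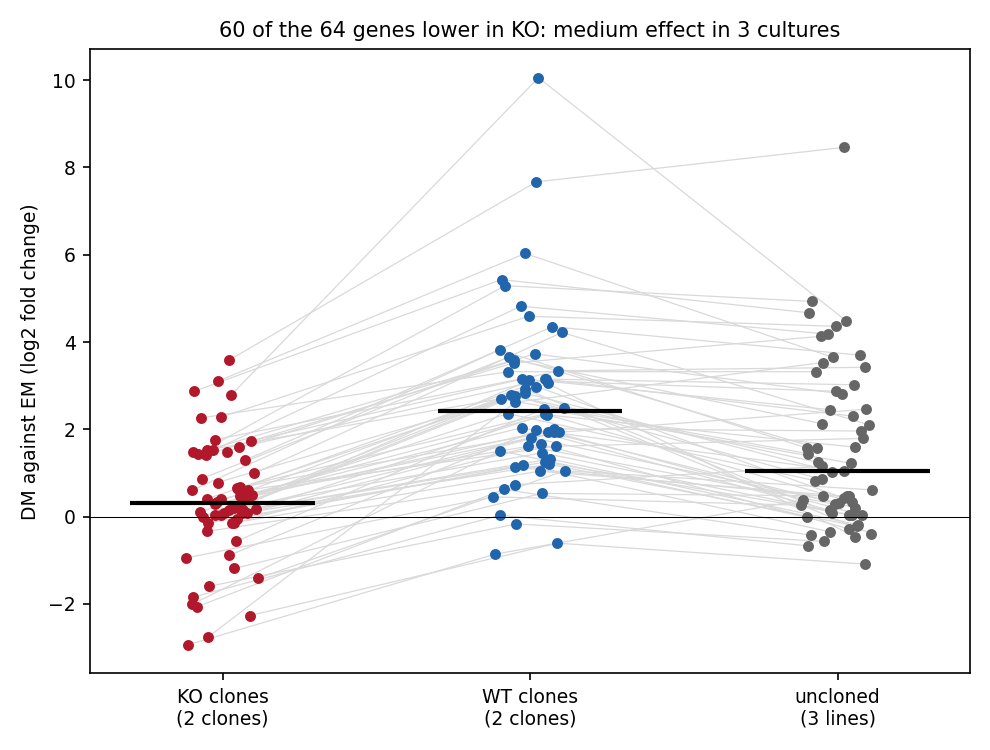
Medium effect (DM against EM, log2 fold change) of 60 of the 64 genes with a lower effect in KO clones, in KO clones, WT clones and uncloned organoids, with grey lines joining a gene and black bars at the medians of 0.31, 2.42 and 1.03. The genes were chosen on the KO and WT values, so only the uncloned column is independent of that choice.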

How the data were processed

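Polyadenylated RNA from organoids was sequenced with a stranded kit, per the labels' protocols. Per the submitters' processing notes, STAR was the aligner, GRCm38 the genome and featureCounts the counter, and their versions and settings were not given there. What was deposited are raw counts per gene, all whole numbers. Of the 55487 gene IDs in the clone table, 55141 matched a symbol, IDs without one held 0.0354% of counts, and 27383 IDs were at 0. Genes were placed with GENCODE M21 (GRCm38), and promoters come from RefSeq.

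Counts were fitted in R 4.3.3 with edgeR 4.0.16 (glmQLFit, glmQLFTest) after filterByExpr, which left 14282 genes, and trimmed-mean scaling. Terms were 1 per clone, the DM effect in WT clones and its difference in KO clones, with 2 residual degrees of freedom. Calls are at an adjusted p under 0.05 (Benjamini-Hochberg, over the whole table). The SE is the absolute log2 value divided by the square root of F. Clone effects are log2 CPM differences with a prior count of 2. The labels name each clone in both media, which is why it is a block. As a check, deviations from group means correlated at 0.51 between the media of the KO clones and 0.60 of the WT clones, each a single value since 2 clones mirror each other. No label says whether clones came from separate animals. The p-values measure how the medium effect varies between these clones of a genotype, as the clone terms remove differences in level. That spread is moderated by the spread of other genes, with 4.98 prior degrees of freedom beside the 2 residual ones. Bounds and Poisson intervals at the 95% level cover counting error only. Uncloned counts were fitted alone with the line as a block.

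Named genes are Pax6, up to 10 called genes with the largest interaction in each direction, at a mean of at least 10 CPM in a group and with clone effects that do not overlap, without predicted or unnamed genes (Gm and Rik names), filled up by smallest p, and up to 4 members of smallest p in each list described. Called genes outside this rule are named as such. The members and the 32 gene lists were chosen with earlier results of these data known, and lists are described by counts and medians with no test. Every list stands beside 0.490% called and a median interaction of -0.02 log2 over all tested genes. The share of negative interactions over all tested genes is not given here, so counts of negative members have no background. Alternatives were no replicate block, DESeq2's size factors, total-count scaling, DESeq2 1.42.0, no filter on low counts, each clone left out, and for the response size only genes of at least 10 CPM. All columns of values in the clone table were used. Gland tissue and reads were not analysed here, and 1 member of the interferon list is not reported by itself.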

Additional observations from a re-analysis of the deposited data

Results flagged for a closer look

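The medium effect differed between KO and WT clones by the interaction test itself, edgeR's quasi-likelihood test with the clone as a block at an adjusted p under 0.05, for 64 genes with a lower and 6 with a higher effect in KO clones. The 30 named genes among them are given here as log2 differences of the medium effect, KO minus WT, with errors and levels in the text above. The values were -7.28 for Rgs4, which rests on a group at 0, -6.36 for Slfn1, -5.39 for Aqp5, -3.85 for Ifi205, -3.51 for Clca3b, -3.31 for Skint3, -3.22 for Ccl5, -3.18 for Lrrc32, -3.09 for Sprr2d and -3.07 for Itga2. They were -2.82 for Rsad2, -2.31 for Cmpk2, -1.69 for Ifi44 and -1.15 for Stat2 on the interferon list, and -2.56 for Inhba, -2.31 for Pmepa1, -2.69 for Plat, -1.58 for Igfbp3 and -1.55 for Tnc on the TGF-beta and matrix lists. Epithelial genes had -2.79 for Slc26a9, -2.48 for Muc4, -1.66 for Wfdc2 and -1.42 for Dsg3, and Akr1b8 had -2.11. Higher effects in KO clones were 2.45 for Fmo2, 2.17 for Vgll3, 1.98 for Pdzrn3, 1.73 for Gstm1, 1.72 for Pdlim2 and 1.44 for Serpine2. All 70 genes kept their sign under every alternative run, and 8 kept their call under each of the 8 alternatives with the clone block.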

How the results depend on the processing

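The calls depend on the clone block, which pairs the DM and EM libraries of a clone: with no replicate block 0 genes were higher and 0 lower in the interaction, and 0 list genes were called against 17. The medium effect without it was called for 706 higher and 487 lower genes in KO clones and 1372 higher and 875 lower in WT clones. Higher and lower interaction calls numbered 24 and 112 with total-count scaling (33 list genes), 67 and 293 with DESeq2, and 145 and 458 without a filter on low counts. All 70 genes were called in these 3 settings and with DESeq2's size factors, and the share of higher calls, 8.57% of 70, was 17.6%, 18.6% and 24% of the calls with total-count scaling, DESeq2 and no filter. Leaving out 1 clone, with the lone clone assumed to vary like the others, gave 0 to 85 higher and 9 to 201 lower interaction calls and 2 to 67 list genes. Of the 70, 9 were shared without KO clone 1, 27 without KO clone 2, 67 without WT clone 1 and 69 without WT clone 2. The medium effect then ranged over 405 to 1643 higher and 256 to 1349 lower genes in KO clones, and 1329 to 1878 higher and 717 to 1248 lower in WT clones. The response size was 0.24 log2 in KO and 0.28 in WT clones over genes of at least 10 CPM, and 0.30 in KO clones with total-count scaling, which differs from the main value in later decimals. Pax6, near 0, turned to 0.07 without the block, 0.03 with total-count scaling and ranged from -0.28 to 0.26 without single clones. Without single clones Myl9 ranged from -0.90 to 5.40 and Cald1 from -1.73 to 0.54, with the sign turned without WT clone 1 and none of them called. The cause of these shifts was not tested. Low counts limit genes such as Rgs4, Slfn1, Aqp5, Mylk and Lgr6, and 2 clones per genotype limit every result.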

Other observations

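Among genes described nowhere above, Olfm4, an epithelial stem cell marker of the intestine, had 11.03 and 5.79 CPM in KO DM and 85.9 and 43.9 CPM in KO EM, against 82.0 and 323 CPM in WT DM and 192 and 459 CPM in WT EM. It fell in both genotypes, by 2.94 log2 in KO and by 0.86 log2 in WT clones (interaction -2.08 ± 0.25, adjusted p = 0.0316). Tmprss4, a serine protease of the cell surface, had 27.1 and 46.4 CPM in KO DM and 106 and 155 CPM in KO EM, against 134 and 147 CPM in WT DM and 137 and 138 CPM in WT EM (-1.88 ± 0.15, adjusted p = 0.0102). Only KO DM stands apart. Prss22, another serine protease, had 232 and 394 CPM in KO DM and 159 and 195 CPM in KO EM, against 488 and 522 CPM in WT DM and 60.9 and 82.5 CPM in WT EM (-2.05 ± 0.21, adjusted p = 0.0255). Srd5a1, which makes dihydrotestosterone, had 286 and 238 CPM in KO DM and 57.7 and 51.3 CPM in KO EM, against 216 and 180 CPM in WT DM and 21.2 and 18.5 CPM in WT EM (-1.06 ± 0.14, adjusted p = 0.0373). These 4 genes were chosen after their values were seen.

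Mylk, a myosin light chain kinase of contractile cells, had 268 counts in KO DM and 1 count in KO EM, a ratio of 273 with a 95% interval of 48.5 to 10800. WT clones had 9.06 and 16.8 CPM in DM and 0.535 and 0.797 CPM in EM, and the interaction of 3.49 ± 1.01 log2 missed the threshold (adjusted p = 0.218).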
